A study of Rattus norvegicus with 21 samples.

Results

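The cardiac transcription factors followed here are Nkx2-5, Gata4, Gata6, Mef2a, Mef2c, Mef2d, Tbx5, Tbx20, Hand2 and Srf, chosen by symbol. 8 of the 10 were matched among the 17085 genes of the tables analysed, and all 8 were among the 11742 genes with enough counts to be tested. Mef2a and Hand2 are not analysed here. Bulk RNA of the infarct zone was sequenced in 21 libraries from Sprague Dawley rats, which form 7 groups of 3. The Sham group was not infarcted. MI24h hearts had a ligature on the left anterior descending coronary artery for 24 h. In MI1h_R and MI6h_R the tie lasted 1 h or 6 h and was followed by reperfusion, with the heart collected 24 h after the infarct began. MI24h_F, MI1h_F and MI6h_F carry an F after the injury's name. Their titles give 23 h of reperfusion after 1 h and 18 h after 6 h. The design text names a pretreatment with fenofibrate, an agonist of the nuclear receptor PPARα, while F itself is not explained in the labels, and no Sham group carries it. The labels leave unsaid if libraries of a group are from different animals, so p-values measure the spread between libraries, which may be technical. In bulk tissue, fewer cells of a type and less RNA per cell cannot be told apart.

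These proteins form the core of the cardiac gene programme. NKX2-5 is a homeodomain factor, GATA4 and GATA6 are zinc finger factors, and TBX5 and TBX20 are T-box factors, and they bind together at enhancers of cardiomyocyte genes. MEF2 factors carry a MADS box and are held back by class IIa histone deacetylases until kinases release them. SRF, another MADS-box factor, binds the CArG box and drives contractile genes with myocardin and its relatives, or immediate early genes with the ELK partners.

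SRF is itself an SRF target, and its promoter is printed first because Srf was the member whose level fell with F in the largest number of comparisons. In the RefSeq promoter table for the rat build GRCr8, 8 of the 10 symbols had an entry, without Gata4 and Mef2c. The CArG box (CC, then 6 letters A or T, then GG, either strand) lay within 250 bases upstream of the start in 501 of 33469 promoters, or 1.5%. Srf was the only member with an entry that held it, with 2 copies. Egr2, an immediate early factor, and Acta1, the skeletal α-actin of stressed cardiomyocytes, also hold a CArG box. Xirp2, an intercalated disc protein and MEF2 target, holds a MEF2 box (CTA, then 4 letters A or T, then TAG), found in 0.523% of promoters. Most targets listed below did not hold these boxes in this window. Among those with an entry, a CArG box lay in 2 of 7 immediate early and 2 of 12 cytoskeletal SRF targets. Of 22 cardiac target genes, 2 held a CArG box and 2 a MEF2 box. The lines give the 150 bases before the start, 5′ to 3′ on the gene's strand, with the boxes in capitals.
Srf, chr9:21923926-21924075, plus strand: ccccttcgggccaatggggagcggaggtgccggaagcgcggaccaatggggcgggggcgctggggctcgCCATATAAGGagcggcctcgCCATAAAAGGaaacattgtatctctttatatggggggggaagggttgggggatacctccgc
Egr2, chr20:21054442-21054591, minus strand: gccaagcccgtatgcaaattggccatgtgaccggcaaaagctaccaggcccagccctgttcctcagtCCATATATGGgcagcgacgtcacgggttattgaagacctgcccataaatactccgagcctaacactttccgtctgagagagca
Acta1, chr19:68784195-68784344, minus strand: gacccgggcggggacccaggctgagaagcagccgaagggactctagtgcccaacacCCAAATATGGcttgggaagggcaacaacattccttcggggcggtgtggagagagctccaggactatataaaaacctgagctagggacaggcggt
Xirp2, chr3:72534036-72534185, plus strand: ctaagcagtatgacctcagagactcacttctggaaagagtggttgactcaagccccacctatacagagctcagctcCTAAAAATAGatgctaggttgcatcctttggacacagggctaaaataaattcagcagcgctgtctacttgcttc
Counted from the start of transcription, the boxes of Srf begin at -81 and -61, that of Egr2 at -83, that of Acta1 at -94 and that of Xirp2 at -74. A GATA site (AGATAA, in 10.3% of promoters, or TGATAA, in 7.97%) lay in the Hand2 and Tbx5 promoters, and a MEF2 box in that of Mef2a. Sites for NKX2-5 (TNAAGTG, in 9.89% of promoters) and T-box factors (AGGTGTGA, in 0.959%) were found in no member's window. A match is a description of these letters and not of binding.

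Depth ran from 12208041 to 18393795 counts per library. TMM factors, which align libraries on the bulk of their genes, were 0.535 to 0.677 in Sham and 0.996 to 1.17 elsewhere, and mitochondrially encoded transcripts took 33.5% to 38.5% of the counts in Sham against 11.3% to 20.2% in the injured libraries. With library size alone the median log2 difference of all genes from Sham moved from between 0.03 and 0.07 to between 0.80 and 0.92, so directions against Sham are relative to the median gene. Libraries also differed in how counts depended on gene length: the slope of log2 count on log2 relative length was 0.05 in Sham 11, -0.28 in Sham 31 and -0.24 in Sham 41, -0.17 to 0.12 in injured libraries without F, and 0.02 to 0.10 in those with F. Sham 11 stands apart in several genes described here, and results that rest on it are given without it. The 13 cardiomyocyte markers, troponins and myosins among them, were detected in every library, with a summed level of 43970 to 59330 TPM (a read share corrected for length) in Sham.

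Against Sham, the homeodomain and GATA factors were lower relative to the median gene in all 6 injured groups. For Gata4 this depended on the scaling, as given below. By the edgeR test, called at an adjusted p under 0.05, the members gave 24 lower and 2 higher calls among 48 gene-by-group results. Lower calls numbered 4 of 8 in MI24h, where 26.2% of all genes tested were called lower, and 5 of 8 in MI1h_R (24.1% of all genes). They numbered 4 of 8 in MI6h_R (27.9%), 4 of 8 in MI24h_F (30%), 3 of 8 in MI1h_F (24.2%) and 4 of 8 in MI6h_F (28.6%). Higher calls numbered 1 of 8 in MI24h (28% of all genes) and 1 of 8 in MI6h_R (29.2%), both Srf. They numbered 0 of 8 in MI1h_R (25.4%), MI24h_F (30.7%), MI1h_F (23.9%) and MI6h_F (28.6%), with 0 higher there at an unadjusted p under 0.05. Scaled by library size alone the split was 10 lower and 11 higher. Per comparison, 1039 to 1940 of all 11742 genes were then called lower and 6364 to 6874 higher. With a limma fit on log2(TPM + 1) the members' split was 9 lower and 14 higher. In that fit 800 to 1543 of all genes were called lower and 6730 to 7944 higher, and their median difference was 0.72 to 0.99.

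**Figure D1:**
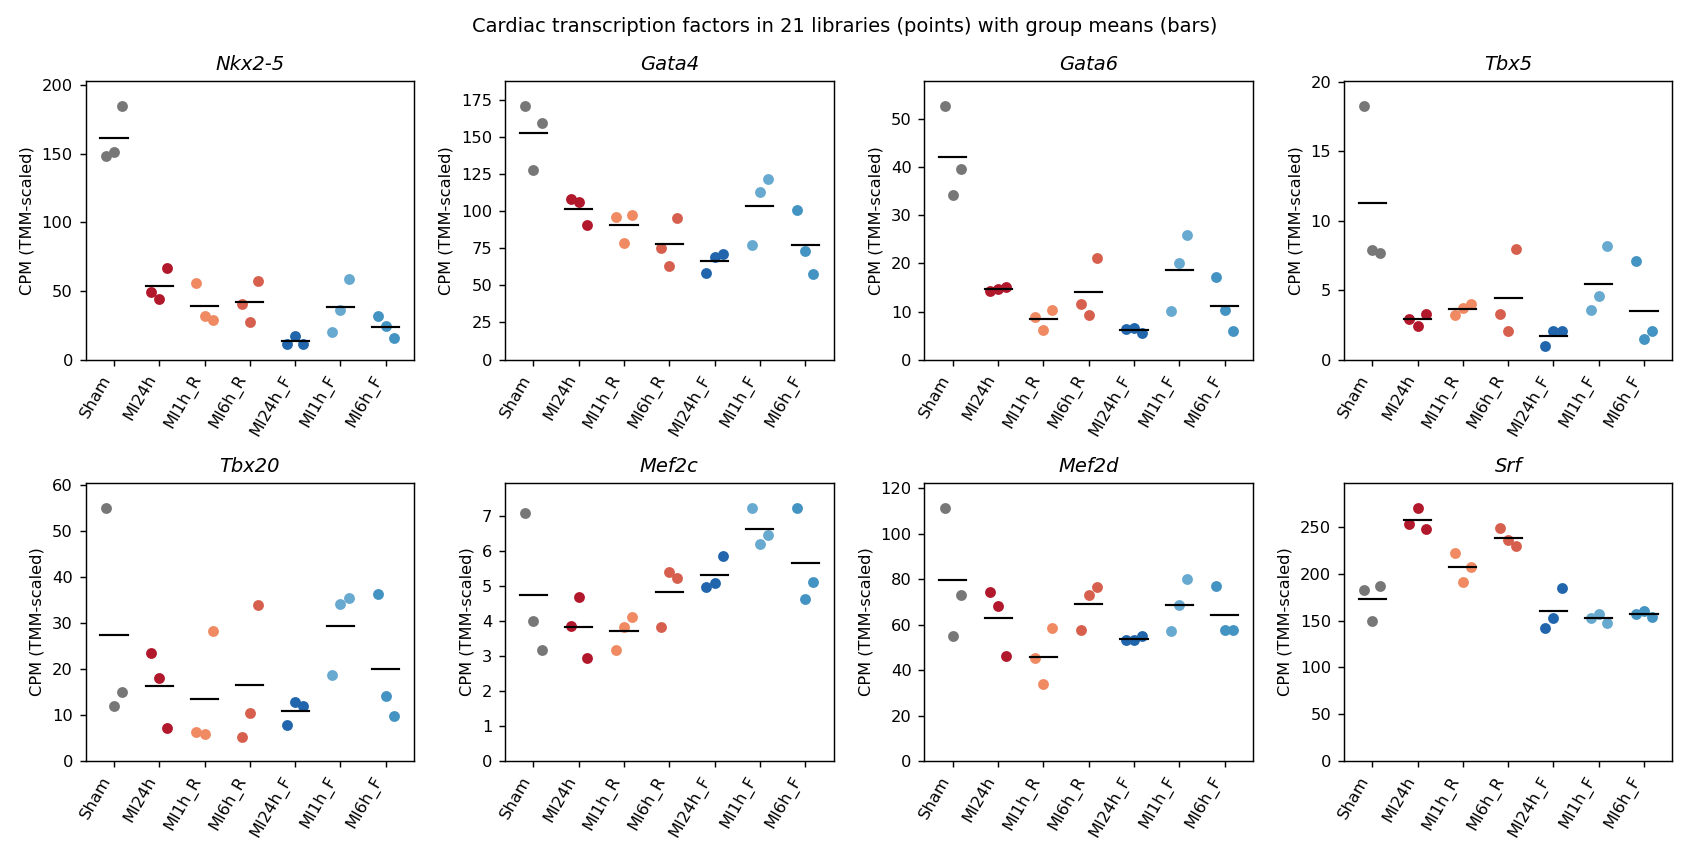
TMM-scaled CPM (vertical axes, starting at 0) of the 8 members in each of the 21 libraries (points) with the group mean (bars). For Nkx2-5 and Gata6 the 3 Sham libraries lie above every injured library, and for Srf the 9 libraries with F lie below the 9 injured libraries without F.

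Although Tbx5 had a lower log2 fold change in MI24h and Gata6 in MI1h_R, the deepest fall of any member was that of Nkx2-5 in MI24h_F. Its CPM (counts scaled to library size times the TMM factor) was 148.5, 151.7 and 184.7 in the Sham libraries 11, 31 and 41. In MI24h it was 49.55, 44.48 and 66.92, in MI1h_R 55.96, 31.71 and 28.56, and in MI6h_R 40.29, 27.45 and 57.6. With F it was 11.04, 17.48 and 11.23 in MI24h_F, 20.4, 36.2 and 59.06 in MI1h_F, and 31.4, 24.22 and 15.43 in MI6h_F. Every Sham library lay above every injured library, and the 3 libraries of MI24h_F hold 3 of the 4 lowest values. The log2 fold change was -1.59 ± 0.37 in MI24h (SE, adjusted p = 0.00137), -2.06 ± 0.37 in MI1h_R (adjusted p = 0.000212) and -1.95 ± 0.37 in MI6h_R (adjusted p = 0.000232). It was -3.605 ± 0.40 in MI24h_F (adjusted p = 7.35e-07), -2.07 ± 0.37 in MI1h_F (adjusted p = 0.000233) and -2.77 ± 0.38 in MI6h_F (adjusted p = 1.08e-05). These calls held without any single library and with library size alone. In the TPM fit the MI24h call was lost, at -0.59 (adjusted p = 0.118).

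Gata6 fell more than its paralog Gata4. Gata6 was at 52.72, 34.22 and 39.59 CPM in Sham, 14.35, 14.73 and 15.15 in MI24h, 8.782, 6.24 and 10.34 in MI1h_R and 11.49, 9.27 and 21.22 in MI6h_R. With F it was at 6.43, 6.547 and 5.504 in MI24h_F, 10.1, 20.01 and 25.97 in MI1h_F and 17.13, 10.38 and 5.91 in MI6h_F. Again no injured library reached the lowest Sham library. The log2 fold change lay between -1.175 ± 0.37 (SE, MI1h_F, adjusted p = 0.0138) and -2.77 ± 0.39 (MI24h_F, adjusted p = 9.50e-06) and was called in all 6 groups. The MI1h_F call was lost without MI1h_F 1, at -0.87 (adjusted p = 0.0769). The calls in MI1h_R, MI24h_F and MI6h_F remained with library size alone.

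Gata4, the GATA factor of cardiomyocyte stress responses, was at 170.6, 127.9 and 159.2 CPM in Sham and between 57.85 and 121.5 CPM in the 18 injured libraries, with no overlap. Its log2 fold change ran from -0.56 ± 0.21 (SE, MI1h_F, adjusted p = 0.0356) to -1.20 ± 0.21 (MI24h_F, adjusted p = 9.20e-05). It was called in all 6 groups relative to the median gene. Scaled by library size alone Gata4 was called in none, at 0.15 in MI24h, 0.03 in MI1h_R and 0.24 in MI1h_F, and on log2(TPM + 1) its difference was above 0 in 5 groups and called in none: 0.46 in MI24h, 0.12 in MI1h_R, 0.27 in MI6h_R, 0.54 in MI1h_F and 0.07 in MI6h_F. The MI24h call was lost without Sham 11, Sham 41 or MI24h 41, and the MI1h_F call without Sham 11, Sham 41, MI1h_F 1 or MI1h_F 4.

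The share of Gata6 in the summed TPM of Gata4 and Gata6 depends on no scaling between libraries. It was 34.45% ± 1.73 in Sham (SD, n = 3) and 20.25% ± 4.79 in the 18 injured libraries. The 3 Sham libraries lay between 32.7% and 36.1%, and the injured ones between 12.8% and 29.3%, with no overlap. An exact permutation test, two-sided, gave p = 0.000752, the smallest that 1330 arrangements allow (adjusted p = 0.00902 over 12 share comparisons). The group means were 21.3% in MI24h, 15.2% in MI1h_R, 24.1% in MI6h_R, 15.5% in MI24h_F, 24.5% in MI1h_F and 20.8% in MI6h_F. Without any single library the difference stayed between -15.1 and -13.4 percentage points.

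**Figure D2:**
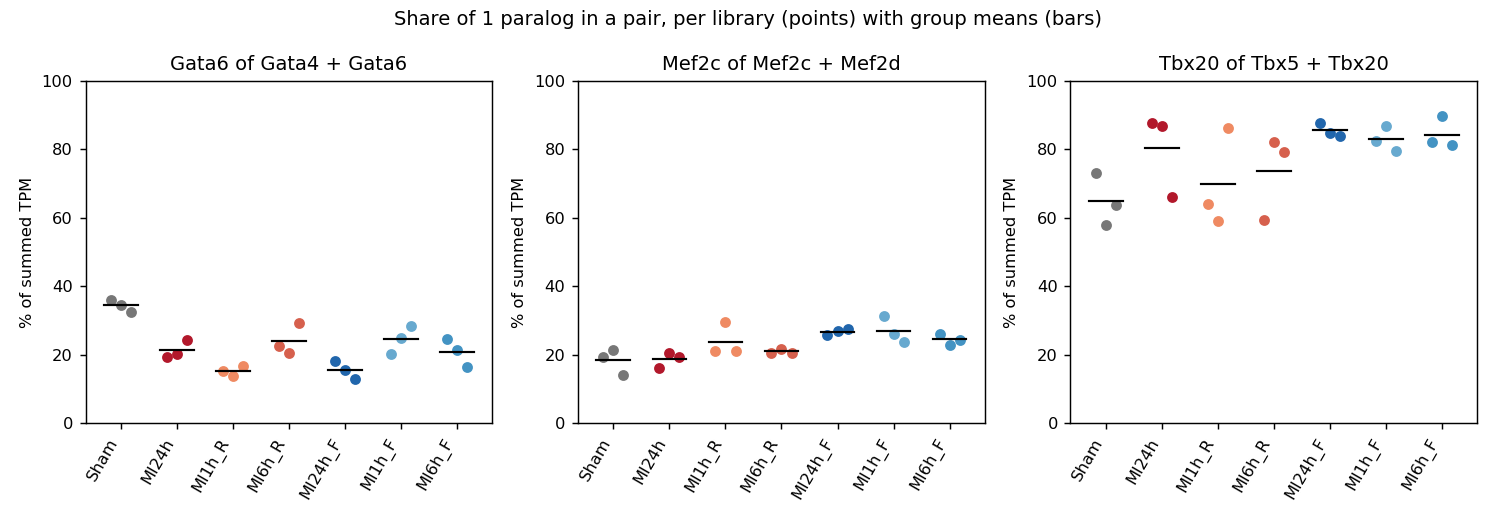
Share of 1 paralog in the summed TPM of a pair (vertical axis, percent) per library (points) with group means (bars). The Gata6 share is 32.7% to 36.1% in the Sham libraries and at most 29.3% in injured ones, and the Mef2c share is 22.9% to 31.3% in the libraries with F.

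Among the T-box factors, Tbx5 fell and Tbx20 gave no call. Tbx5, which with NKX2-5 sets conduction and atrial genes, was at 18.23, 7.917 and 7.677 CPM in Sham and from 0.983 to 8.2 CPM in the 18 injured libraries, with a median of 3.24. Sham 11 stood above the other 2 Sham libraries, with the highest Sham value 2.38 times the lowest. The log2 fold change was -1.97 ± 0.57 in MI24h (SE, adjusted p = 0.00696) and -2.73 ± 0.59 in MI24h_F (adjusted p = 0.000663), and these calls held without any single library. It was -1.63 ± 0.56 in MI1h_R, -1.35 ± 0.55 in MI6h_R and -1.67 ± 0.56 in MI6h_F, which were called, and -1.05 ± 0.55 in MI1h_F (adjusted p = 0.122). Without Sham 11 the differences in MI1h_R, MI6h_R and MI6h_F were -1.11 (adjusted p = 0.124), -0.81 (adjusted p = 0.236) and -1.14 (adjusted p = 0.102). The MI1h_R call was also lost without MI1h_R 11 or 31, and the MI6h_F call without MI6h_F 2 or 4. The MI6h_R call held in 10 of 21 fits that left out 1 library. It was lost without Sham 11, any MI24h library, MI1h_R 11 or 31, MI6h_R 11 or 21, MI24h_F 2 or 4, or MI1h_F 4. Of the Tbx5 calls, that in MI24h_F remained with library size alone.

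Tbx20, a T-box factor that keeps adult cardiomyocytes contracting, was at 55.08, 12.1 and 15.02 CPM in Sham, 23.54, 18.21 and 7.199 in MI24h, 6.373, 5.95 and 28.37 in MI1h_R and 5.381, 10.47 and 34.01 in MI6h_R. The highest library was 4.55 times the lowest in Sham and 6.32 times in MI6h_R, and Sham overlapped every injured group. The log2 fold change ran from -1.33 ± 0.75 (SE, MI24h_F, adjusted p = 0.132) to 0.10 ± 0.73 (MI1h_F, adjusted p = 0.919). Without MI1h_R 41 the difference of MI1h_R from Sham was -2.15 (adjusted p = 0.039), and without Sham 11 it was 0.01. The Tbx20 share of Tbx5 and Tbx20 was 64.8% ± 7.68 in Sham (SD, n = 3) and 79.45% ± 10.03 in injured libraries, with overlap (exact permutation p = 0.0180, adjusted p = 0.0722). It passed the threshold without MI24h 41, MI1h_R 11, MI1h_R 31 or MI6h_R 11.

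Of the MEF2 genes, Mef2d gave 1 call against Sham and Mef2c 0. Mef2d was at 111.2, 54.87 and 72.93 CPM in Sham and from 34.1 to 80.21 CPM in the injured libraries. As reported it was called lower in MI1h_R and in no other group, at -0.79 ± 0.25 (SE, adjusted p = 0.0124). Without Sham 11 that difference was -0.47 (adjusted p = 0.108), without MI1h_R 31 it was -0.61 (adjusted p = 0.0689), and with TPM it turned to 0.12. In MI24h_F Mef2d stood at -0.56 ± 0.25 (adjusted p = 0.0548) and was called lower by DESeq2, with median-of-ratios factors, with the length trend removed, and without Sham 31, MI24h 41, MI1h_R 31 or MI1h_R 41. In TPM Mef2d was called higher in MI24h (0.68), MI6h_R (1.01), MI1h_F (0.90) and MI6h_F (0.79), and with library size alone in MI6h_R (0.64). The median of all genes in these groups was 0.83, 0.99, 0.89 and 0.86 in TPM. With library size alone it was 0.915 in MI6h_R. These calls are thus no rise relative to the median gene beyond the SE given above. Mef2c, from a gene model whose relative length lies at percentile 7.08 of the genes tested, had 3.18 to 7.09 CPM in Sham and 2.95 to 7.24 CPM in injured libraries. Its log2 fold change from Sham lay between -0.36 ± 0.29 and 0.48 ± 0.29 (SE) with no call. Scaled by library size alone Mef2c was called higher in MI6h_R and in the 3 groups with F, and it was called in MI1h_F without Sham 11, at 0.88 (adjusted p = 0.0197).

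Srf rose in 2 groups without F. It was at 182.1, 149.2 and 186.9 CPM in Sham, 252.9, 269.9 and 247.4 in MI24h, 222, 190.9 and 206.7 in MI1h_R and 248.9, 235.8 and 229.5 in MI6h_R. All 9 of these injured libraries lay above all 3 Sham libraries. The log2 fold change was 0.57 ± 0.13 in MI24h (SE, adjusted p = 0.000908), 0.46 ± 0.13 in MI6h_R (adjusted p = 0.00426) and 0.26 ± 0.13 in MI1h_R (adjusted p = 0.0958). Srf has a long gene model, at percentile 88.2 of relative length, and with the length trend removed from each library the differences were 0.33 in MI24h (adjusted p = 0.0456) and 0.14 in MI6h_R (adjusted p = 0.387). In the groups with F it stood at -0.11 to -0.18 with no call, at -0.47 to -0.48 and called lower with the length trend removed, and at 0.63 to 0.67 and called higher with library size alone. In MI1h_R, too, Srf was called higher with library size alone. In TPM the Sham libraries were at 28.57, 20.61 and 19.75 and the 18 injured libraries between 38.61 and 79.6, with no overlap.

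**Figure D3:**
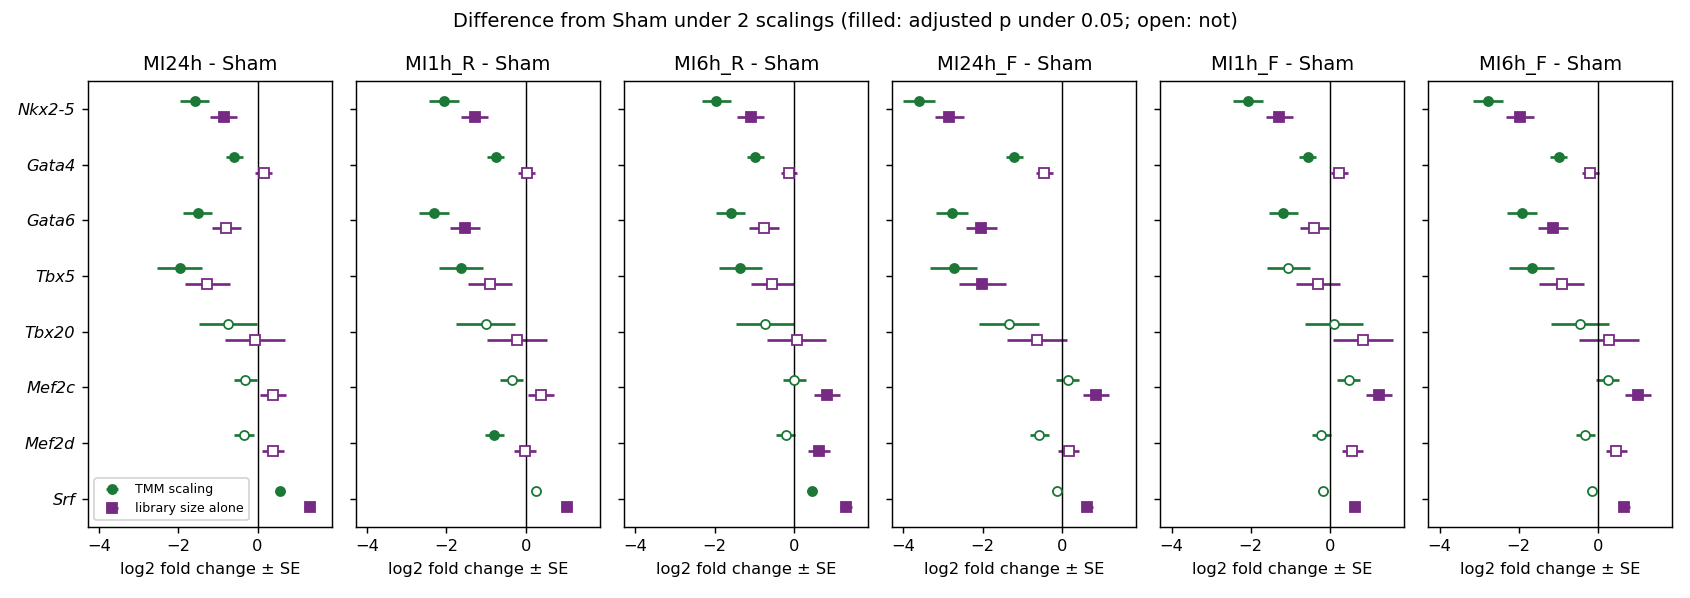
Log2 fold change from Sham with its SE (horizontal axes) for each member in the 6 injured groups, with TMM scaling (circles) and with library size alone (squares), filled where the adjusted p is under 0.05. Squares lie to the right of circles throughout; Nkx2-5 is filled in every panel under both, while Gata4 is filled under TMM only and is above 0 without it in 3 panels.

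Per length, Nkx2-5 was the most abundant member in Sham, at 104.4 ± 9.31 TPM (SD, n = 3). In MI24h it was at 69.0 ± 6.75 TPM and Srf at 68.7 ± 10.9, which did not differ beyond their spread. In MI24h_F Nkx2-5 was at 17.5 ± 5.25 TPM and Srf at 43.1 ± 5.80. The order of these members thus differed between Sham and MI24h_F with no overlap in either. Tbx5 was the lowest member on average in every group, Sham included, at 4.61 ± 3.23 TPM there. It was at 2.20 ± 0.10 TPM in MI24h and at 1.31 ± 0.47 in MI24h_F.

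The cardiomyocyte markers fell in the same libraries. All 13 cardiomyocyte markers were called lower in MI24h, with a median log2 fold change of -3.17, and 12 of 13 in MI24h_F, with a median of -4.54, against medians of 0.07 and 0.06 over all genes. Their summed level was 8770 to 12810 TPM in MI24h, 10770 to 13710 in MI1h_R, 4858 to 12830 in MI6h_R, 2673 to 5607 in MI24h_F, 12220 to 20500 in MI1h_F and 3994 to 12280 in MI6h_F, with none at 0. Within a library, Nkx2-5 relative to the mean log2 TPM of the markers was on average 1.635 higher in MI24h than in Sham, 0.55 in MI1h_R, 1.98 in MI6h_R, 0.70 in MI24h_F, 0.25 in MI1h_F and 1.03 in MI6h_F. Gata6 on this scale was 1.75 higher in MI24h and 0.34 in MI1h_R, and Srf 3.82 and 2.93. These ratios were chosen after the data were seen and carry no test. In MI24h, 8 of 8 neutrophil markers rose (median 5.62) and 8 of 10 fibroblast markers fell (median -1.71). The part of cell composition in the members' differences was not tested.

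**Figure D4:**
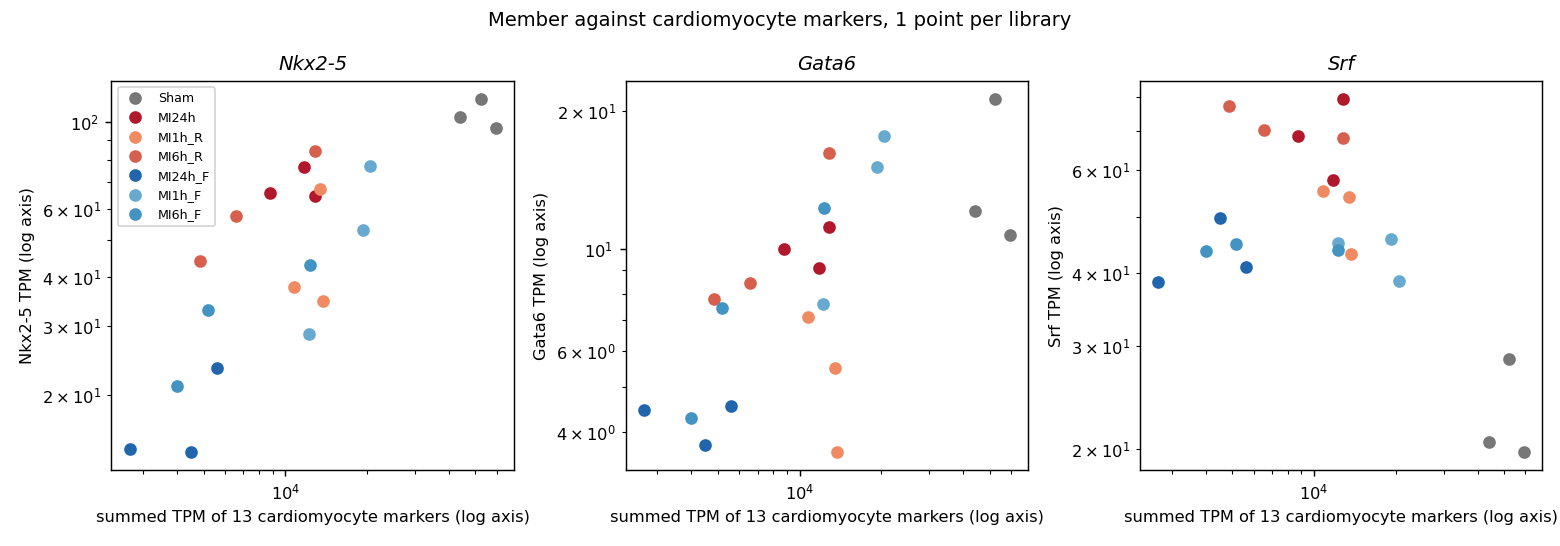
TPM of Nkx2-5, Gata6 and Srf (vertical, log axis) against the summed TPM of 13 cardiomyocyte markers (horizontal, log axis), 1 point per library. The Sham libraries, with 43970 to 59330 TPM of markers, have the highest Nkx2-5 and the lowest Srf, and the MI24h_F libraries, with 2673 to 5607, are among the lowest in Nkx2-5 and Gata6.

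The timing of reperfusion was compared next. Without F, edgeR called 0 of 24 gene-by-comparison results between MI1h_R, MI6h_R and MI24h, where 4.29%, 0.502% and 2.38% of all genes were called between MI1h_R and MI24h, MI6h_R and MI24h, and MI1h_R and MI6h_R. An unadjusted p under 0.05 was found for 2 of 8 members, 0 of 8 and 1 of 8 in these comparisons, against 2461, 996 and 2583 of all 11742 genes, and DESeq2 called 0 members. Of these 3 the largest was Gata6 in MI1h_R against MI24h, at -0.80 ± 0.37 (SE, adjusted p = 0.228), with no overlap between the groups.

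With F, 3 members were higher after 1 h of ligation than after permanent ligation, where 8.87% of all genes were called higher and 6.73% lower. In MI1h_F against MI24h_F, Nkx2-5 differed by 1.54 ± 0.37 (SE, adjusted p = 0.0125), Gata6 by 1.60 ± 0.38 (adjusted p = 0.0115) and Gata4 by 0.65 ± 0.21 (adjusted p = 0.0444). Tbx5 stood at 1.68 ± 0.58 (adjusted p = 0.0577) and Tbx20 at 1.44 ± 0.75 (adjusted p = 0.202). For Nkx2-5, Gata6 and Gata4 the 3 MI1h_F libraries lay above the 3 MI24h_F libraries. So they did for Tbx5, Tbx20, Mef2c and Mef2d, which were not called. The share of all genes without overlap was not counted, so the number of such members cannot be read as a result. An unadjusted p under 0.05 was found for 4 of 8 members, against 3609 of all 11742 genes. The 13 cardiomyocyte markers had a median difference of 2.06 with 11 called higher, so their levels moved with these members, and their part in the result was not tested. Without MI1h_F 5 the Nkx2-5 difference was 1.07 (adjusted p = 0.0776) and that of Gata6 1.27 (adjusted p = 0.0615), and without MI24h_F 1 that of Nkx2-5 was 1.42 (adjusted p = 0.0611). The Gata4 call held in 11 of 21 fits that left out 1 library, with values from 0.50 to 0.82. It was lost without Sham 41, MI24h 21, MI1h_R 11, MI6h_R 11, any MI24h_F library, MI1h_F 4 or 5, or MI6h_F 2. Between MI6h_F and MI24h_F, and between MI1h_F and MI6h_F, edgeR called 0 of 16 results, where 0.494% and 0% of all genes were called, and DESeq2 called 0. An unadjusted p under 0.05 was found for 2 of 8 and 0 of 8, against 1100 and 1592 of all 11742 genes.

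Adding F to an injury was compared with the same injury without it, and Srf was the member that moved most evenly. The 9 libraries with F had 142.1, 152.3 and 184.6 CPM of Srf in MI24h_F, 152.4, 157.1 and 147.8 in MI1h_F, and 157.3, 159.8 and 153.6 in MI6h_F. By TMM-scaled CPM, all 9 lay below the 9 injured libraries without F, which started at 190.9 CPM, and within or near the Sham range. The log2 difference was -0.685 ± 0.13 in MI24h (SE, adjusted p = 0.00370), -0.60 ± 0.13 in MI6h (adjusted p = 0.00845) and -0.44 ± 0.13 in MI1h (adjusted p = 0.132), and the mean of the 3 injuries was -0.575 ± 0.07 (adjusted p = 5.60e-05). The calls in MI24h, MI6h and the mean held under every scaling tried, with the length trend removed and without any single library. By TPM, Srf was at 38.61 to 49.65 with F and at 43.22 to 79.6 in the injured libraries without F, with overlap. Sham was lower than both, at 19.75 to 28.57 TPM. The nearness to Sham thus depended on the scaling. Lower calls were given to 3 of 8 members in MI24h, where 7.78% of all genes were called lower and 5.2% higher, to 1 of 8 in MI6h (5.64% lower and 3.87% higher) and to 2 of 8 for the mean (15.7% lower). In MI1h edgeR called 0 of 8, where 0.0681% of all genes were called. At an unadjusted p under 0.05 there were 4 of 8, against 1912 of all 11742 genes. DESeq2 called 1 there, Srf, where it called 173 of 11707 genes lower and 141 higher.

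Nkx2-5 was lower with F under permanent ligation, at -2.01 ± 0.38 (SE, adjusted p = 0.00408), with no overlap between the groups. Its difference was -0.82 ± 0.36 in MI6h (adjusted p = 0.161) and -0.01 ± 0.36 in MI1h (adjusted p = 0.994), and the mean of the 3 injuries was -0.95 ± 0.21 (adjusted p = 0.00320). The MI24h and mean calls held in every alternative run. Gata6 was lower with F in MI24h, at -1.26 ± 0.38 (adjusted p = 0.0368), a call that was lost without any 1 of the 6 libraries compared, with values from -1.30 to -1.18. In MI1h Gata6 stood at 1.14 ± 0.38 (adjusted p = 0.169), and its mean over the 3 injuries was -0.15 ± 0.22. In MI24h_F against MI24h the 13 cardiomyocyte markers had a median of -1.38 with 6 called lower, and for the mean of the 3 injuries a median of -0.38 with 0 called by edgeR and 1 at an unadjusted p under 0.05. Their part in the differences of Nkx2-5 and Gata6 was not tested.

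The estimates of the F effect differed between injuries for Nkx2-5 and Gata6, but edgeR called no difference between them. The F effect in MI1h minus that in MI24h was 2.01 ± 0.52 for Nkx2-5 (SE, adjusted p = 0.161) and 2.40 ± 0.53 for Gata6 (adjusted p = 0.150). In the 3 comparisons of F effects edgeR called 0 of 24 results, where 0%, 0% and 0.00852% of all genes were called. For MI1h against MI24h, MI6h against MI24h and MI1h against MI6h, 4, 1 and 1 of 8 members had an unadjusted p under 0.05, against 1990, 420 and 1546 of all 11742 genes. For MI1h against MI24h, DESeq2 called both Nkx2-5 (adjusted p = 0.0201) and Gata6 (adjusted p = 0.00612). It called 151 of 10039 genes higher there and 74 lower. Gata6 was also called without MI1h_F 1, at 2.697 (adjusted p = 0.0412).

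Mef2c was the member called higher with F, for the mean of the 3 injuries, where 11.3% of all genes were called higher. Its level was 2.95 to 5.42 CPM in the 9 injured libraries without F and 4.64 to 7.24 CPM in the 9 with F, so the ranges overlapped. The mean difference was 0.51 ± 0.17 (SE, adjusted p = 0.0279). The call was lost without MI24h 41, MI1h_R 11, MI6h_R 11, MI24h_F 4, MI1h_F 1 or MI6h_F 1, with adjusted p between 0.0526 and 0.0625, and with library size alone (adjusted p = 0.0544). The Mef2c share of Mef2c and Mef2d in TPM was 26.1% ± 2.44 with F (SD, n = 9) and 21.2% ± 3.50 without (exact permutation within injuries p = 0.00525, adjusted p = 0.0315). That call was lost without MI24h 11 or 21, MI6h_R 21 or 31, or MI1h_F 1 or 4. Fibroblast markers, whose cells express MEF2C too, were called higher in 5 of 10 for the mean effect of F (median 0.68), and their summed level was 875 to 1759 TPM without F and 1481 to 3653 TPM with F, with none at 0. For the same mean, 1 of 7 endothelial markers was called lower and 1 higher (median 0.149). Of 9 macrophage markers 1 was called lower and 0 higher (median -0.048), and of 8 lymphocyte markers 0 were called (median -0.335). The part of any cell type in the Mef2c difference was not tested.

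**Figure D5:**
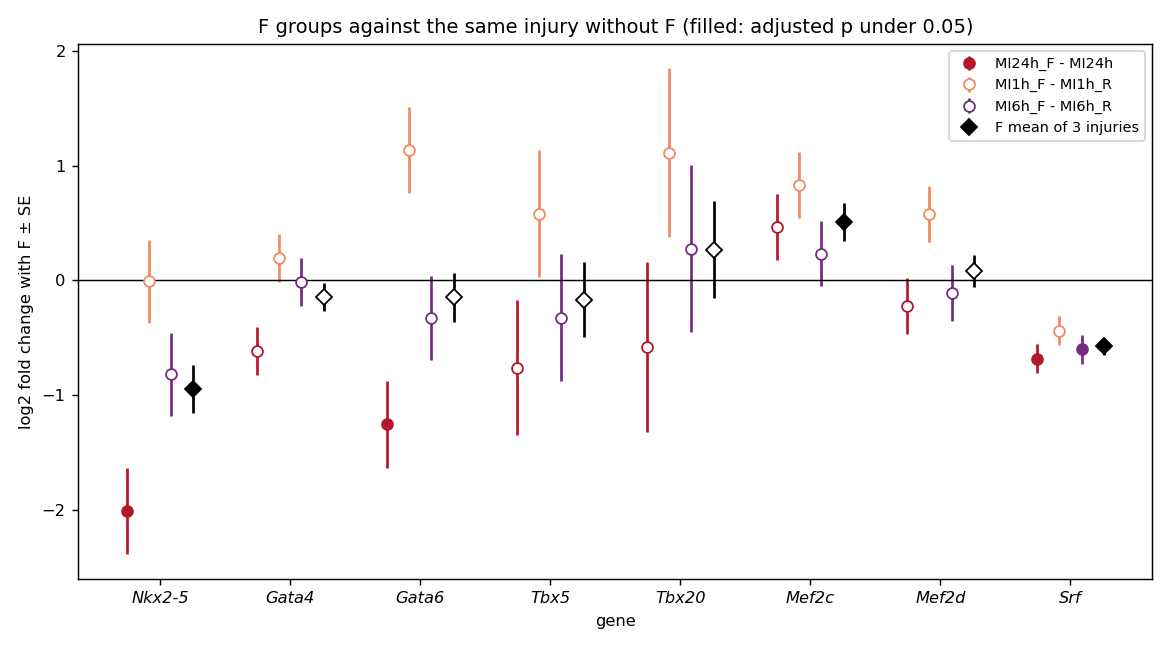
Log2 fold change with F, with its SE (vertical axis), for each member in 3 injuries (circles) and for their mean (diamonds), filled where the adjusted p is under 0.05. Srf is below 0 in all 3 injuries, Nkx2-5 lies at -2.01 in MI24h and -0.01 in MI1h, and the mean of Mef2c is at 0.51.

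Among genes that SRF is known to control, 6 of 6 immediate early targets tested were called higher in MI24h against Sham (median 2.82), where 28% of all genes were. Egr2 rose by 3.86 ± 0.45 (SE, adjusted p = 2.20e-06), Junb by 2.77 ± 0.31 (SE), Egr1 by 2.725 ± 0.31 and Egr3 by 3.12 ± 0.48 (adjusted p = 2.94e-05). Egr2 was at 1.039, 7.007 and 1.645 CPM in Sham and at 39.2, 47.6 and 56.36 CPM in MI24h. With F, 2 of the 6 were called lower for the mean of the 3 injuries, against 15.7% of all genes, Junb at -0.845 ± 0.17 (adjusted p = 0.00150) and the nuclear receptor Nr4a1 at -0.59 ± 0.12 (adjusted p = 0.00163), while Egr2 stood at -0.23 ± 0.22 (adjusted p = 0.485). The median of the 6 was -0.28, against -0.02 over all genes.

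Of 12 cytoskeletal SRF targets, 7 were called higher and 4 lower in MI24h, against 28% and 26.2% of all genes. The matricellular genes Ccn1 (2.61 ± 0.24, SE) and Ccn2 (2.905 ± 0.41), the focal adhesion gene Zyx (1.60 ± 0.18) and the tropomyosin Tpm4 (1.62 ± 0.22) rose. The muscle genes Myl9 (-2.86 ± 0.36), Tpm1 (-2.37 ± 0.32) and Tagln (-2.29 ± 0.35) fell, and so did Vcl (-0.48 ± 0.14), which stood at 0.26 with library size alone and at 0.52, called higher, in TPM. With F, 4 of the 12 were called lower for the mean and 0 higher, against 15.7% and 11.3% of all genes: Ccn1 (-0.60 ± 0.13, adjusted p = 0.00253), Zyx (-0.41 ± 0.10, adjusted p = 0.00578), Tpm1 (-0.66 ± 0.175, adjusted p = 0.00904) and Ccn2 (-0.78 ± 0.22, adjusted p = 0.0131).

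Of 25 cardiomyocyte genes that the members are known to regulate, 16 were called lower and 3 higher in MI24h, against 26.2% and 28% of all genes, with a median of -2.40. The calcium pump gene Atp2a2 fell by 3.60 (SE 0.38, adjusted p = 8.72e-07), and Tnni3, Casq2 and Myh6, for cardiac troponin I, calsequestrin and α-myosin, fell by 3.54, 2.40 and 4.03. Xirp2 rose by 2.175 ± 0.27 (adjusted p = 3.99e-06), Nppb, for the natriuretic peptide BNP, by 1.17 ± 0.33 (adjusted p = 0.00575) and Nppa by 1.73 ± 0.69 (adjusted p = 0.0420). Xirp2 was at 388.8, 534.8 and 281.8 CPM in Sham and at 1710, 2012 and 1722 CPM in MI24h. For the mean effect of F, 4 of 25 were called lower and 0 higher. The lower share is near the 15.7% of all genes called lower and is no result about the list. The 4 were Csrp3, a Z-disc protein (-1.16 ± 0.25, adjusted p = 0.00241), the intermediate filament gene Des (-0.70 ± 0.17, adjusted p = 0.00529), Nppb (-0.77 ± 0.19, adjusted p = 0.00574) and Acta1 (-0.63 ± 0.18, adjusted p = 0.0131). The median of the 25 was -0.38. In MI1h_F against MI24h_F, 15 of 25 were called higher and 0 lower (8.87% and 6.73% of all genes, median 1.49), among them Actc1 (2.11 ± 0.43), Acta1 (1.45 ± 0.31), Tnni3 (2.06 ± 0.46) and Mybpc3 (2.26 ± 0.51). Actc1, Tnni3, Myh6 and Mybpc3 are also among the cardiomyocyte markers above, so these lists share genes and their counts are not separate results.

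Of 19 partners and switches of the members tested, 6 were called lower and 6 higher in MI24h, shares near the 26.2% and 28% of all genes. Fhl2, a LIM protein that binds SRF, fell from 957.1, 614.6 and 1188 CPM in Sham to 68.57, 89.88 and 103.1 CPM (-3.40 ± 0.39, SE, adjusted p = 1.83e-06). The deacetylase Hdac5, which represses MEF2, was at -0.94 ± 0.17, and Camk2d, a kinase that releases it, at -1.31 ± 0.17, and Smarcd3, a subunit of the cardiac BAF complex, at -0.97 ± 0.24, all called. Hdac5 stood at -0.20 with library size alone (adjusted p = 0.353). The MEF2 kinase Mapk7 rose by 1.39 ± 0.15, the SRF coactivator Mrtfa by 1.13 ± 0.22 the SRF partner Elk4 by 0.70 ± 0.16 and Nfatc4, a calcineurin-driven partner of GATA4, by 0.71 ± 0.18. For the mean effect of F, 4 were called lower and 3 higher, again near the 15.7% and 11.3% of all genes: Fhl2 (-0.80 ± 0.21), the GATA cofactor Zfpm1 (-0.56 ± 0.15), the cardiac ankyrin repeat gene Ankrd1 (-0.63 ± 0.21) and Nfatc4 (-0.29 ± 0.10) fell, and Elk4 (0.33 ± 0.09), Camk2d (0.31 ± 0.10) and Elk3 (0.25 ± 0.08) rose.

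Of 11 other cardiac transcription factors, 6 were called lower and 0 higher in MI24h (26.2% and 28% of all genes, median -0.92). Klf15, a factor of cardiac metabolism that falls in hypertrophy, went from 107, 107.1 and 145.5 CPM in Sham to 2.113, 4.827 and 6.17 CPM (-4.77 ± 0.79, SE, adjusted p = 6.88e-05). The ventricular factor Irx4 fell by 3.69 (SE 0.80), and Meis1 by 0.92 (SE 0.20), which stood at 0.07 in TPM. For the mean effect of F, Tbx2 was the gene called, at -0.58 ± 0.16 (adjusted p = 0.0110). Klf15 was higher in MI1h_F than in MI24h_F, by 3.03 ± 0.79 (adjusted p = 0.0170).

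Of the genes tested, 9313 had a mean CPM of 5 or more, and those whose 6 log2 differences from Sham were nearest to each member's were found by root mean square difference. Tbx5 had the growth factor receptor gene Fgfr3 among its 3 nearest, at 0.176. Gata6 lay nearest to the calcium channel gene Cacna1c, at 0.243, and the sarcomere gene Mypn, at 0.271. Nkx2-5 lay nearest to Hspb2, a muscle heat shock gene, at 0.244, and to Jph2, a gene of the cardiac dyad, at 0.283. Srf was nearest to Kctd13 (0.073), Gata4 to Tspan7 (0.085), Mef2d to Vps13d (0.049), Mef2c to Angptl2 (0.117) and Tbx20 to Kank2 (0.155). Between members, Gata6 and Tbx5 were nearest, at 0.367, and Nkx2-5 and Srf farthest, at 2.54. All these differences share the Sham libraries, so the distances are a description.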

How the data were processed

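Infarct-zone mRNA of 21 libraries was sequenced on an Illumina HiSeq after NEBNext Ultra preparation, per the labels. The authors deposited 1 table of estimated counts, whole numbers in the file, and 1 of TPM, both by gene symbol. The submitters' processing notes name STAR 2.7.3a, RSEM 1.3.1 and rn7. Annotation and strandedness are not given in the sources used here. The promoter table is of another build, GRCr8.

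Counts were fitted in R 4.3.3 with edgeR 4.0.16: filterByExpr, TMM, a robust quasi-likelihood fit with 1 term per group over 21 libraries, and 19 contrasts. Each contrast's p-values got a Benjamini-Hochberg adjustment across 11742 genes, and calls have an adjusted p under 0.05. Shares of TPM were tested by exact permutation. Alternatives used DESeq2 1.42.0, limma 3.58.1 on log2(TPM + 1), other scalings, filters and sample sets, single omissions, and a removed length trend chosen after seeing the data. The fit was run on simulated counts with known changes for MI1h_R against MI24h alone, which does not test the scaling against Sham. Groups follow the titles, since the group field shortens MI1h_R and MI6h_R. The precision of low genes is limited by the 12208041 to 18393795 counts per library.

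The members and lists were chosen with earlier results of these data known. Of each list of partners and targets, the genes named are those called with the smallest p, up to 4 in each direction, and targets beside a member that acts on them. Nearest patterns are taken from the closest 3 per member. Some genes that these rules select are not reported here. Of 5 shares planned, 3 could be formed without Mef2a.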

Additional observations from a re-analysis of the deposited data

How the results depend on the processing

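Of 152 gene-by-comparison results, 36 were called, and 14 of these were called in the same direction under every alternative run. 56 were called under at least 1 setting, and the values below cover these. Of the other 96, which were called under none, 35 changed sign somewhere. Against Sham, library size alone gave 10 lower and 11 higher calls, and the fits on log2(TPM + 1) and log2(TPM + 0.1) gave 9 lower and 14 higher each. In the 3 groups without F these were 4 and 5, then 3 and 6. Over all 6 groups, these fits called 736 to 1940 of all 11742 genes lower and 6364 to 8029 higher per comparison. Fitting the groups compared only left 1 higher call against Sham in all and in these 3 groups, as did removing the length trend. In the comparisons between injuries the groups-only fit gave 5 higher calls. Higher calls with F numbered 0 with library size alone and with log2(TPM + 0.1). Differences of F effects gave 2 higher calls in DESeq2 and 1 in the groups-only fit, all for MI1h against MI24h. Of all genes, DESeq2 called 151 of 10039 higher there and the groups-only fit 17 of 11517.

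Replicate numbers did not pair libraries: 1 of 12 without F and 0 of 9 with F correlated best with the same number, with same-number correlations of -0.734 to 0.468 and -0.537 to 0.227. With the replicate block, higher calls fell to 0 between injuries and to 0 against Sham in the groups without F. F and no F groups share no numbers.

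Over all genes the median difference from Sham was 0.803 to 0.915 with library size alone. It was 0.719 to 0.987 on log2(TPM + 1) and 0.917 to 1.241 on log2(TPM + 0.1). Signs of members turned against Sham as follows. Gata4 was at 0.15, 0.025 and 0.24 with library size alone in MI24h, MI1h_R and MI1h_F. In TPM with 1 and 0.1 added it was at 0.46 and 0.47 in MI24h, 0.12 and 0.13 in MI1h_R, 0.27 and 0.28 in MI6h_R, 0.54 and 0.55 in MI1h_F, and 0.070 and 0.073 in MI6h_F. Mef2d was at 0.39, 0.64, 0.18, 0.57 and 0.47 with library size alone in MI24h, MI6h_R, MI24h_F, MI1h_F and MI6h_F. In TPM it was at 0.68 and 0.70 in MI24h, 0.12 and 0.13 in MI1h_R, 1.01 and 1.04 in MI6h_R, 0.51 and 0.53 in MI24h_F, 0.90 and 0.93 in MI1h_F, and 0.79 and 0.82 in MI6h_F. Srf was at 0.65, 0.63 and 0.67 with library size alone in MI24h_F, MI1h_F and MI6h_F, and in TPM at 0.89 and 0.92, 0.90 and 0.92, and 0.93 and 0.96. Mef2c in MI6h_R was at -0.033 in DESeq2, -0.029 with median-of-ratios factors, -0.026 in the groups-only fit and -0.15 with the replicate block. The Gata6 share with F against no F was 0.07 percentage points and -0.19 as a share of counts. The cause of these turns was not tested.

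Leaving out 1 library gave 18 to 26 lower and 2 to 3 higher calls against Sham, 9 to 14 lower in the groups without F, 0 to 4 higher between injuries, 5 to 7 lower and 0 to 1 higher with F, and 0 to 1 higher for differences of F effects. The Gata6 share moved between -0.95 and 1.202 points with F and between -0.29 and 2.67 in MI1h against MI24h. The Mef2c share moved between 4.22 and 5.91 with F and between -1.31 and 0.94 in MI6h against MI24h, and the Tbx20 share between 11.1 and 18.7 in injured libraries against Sham. Signs turned for Mef2c in MI24h_F (-0.024 to 0.585) and MI6h_R (-0.18 to 0.433), Mef2d in MI1h_F (-0.39 to 0.11), MI6h_F (-0.483 to 0.019) and MI6h_R (-0.37 to 0.13), and Tbx20 in MI1h_R (-2.149 to 0.012).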
